A study of Homo sapiens with 6 samples.

Results

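The genes described here are 32 targets, regulators and enzymes of the NRF2 antioxidant response and of the glutathione and thioredoxin systems. They were taken by gene symbol from a fixed list that was drawn up with earlier results of these data known. All 32 had a probe set (several short probes that together read a transcript) annotated with that symbol alone, out of 19775 genes with such a probe set in the series. Each gene was represented by its probe set with the highest mean signal over the 6 arrays. Of the 32 genes, 30 had a representative probe set that passed the filter on dim signals, and all 30 lay above the filter's signal of 18.6 on all 6 arrays. The multidrug transporter ABCC2 (8.2 to 8.4 in LV-shIL-1β and 6.8 to 8.2 in LV-shNC) and the glutathione transferase MGST1 (4.9 to 5.5 in LV-shIL-1β and 4.3 to 5.8 in LV-shNC on its brightest probe set) lay below it on all 6 arrays and were not tested.

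The measurements come from Affymetrix Human Genome U133 Plus 2.0 arrays of Cal27, a squamous carcinoma line that was established from a human tongue tumour. Cells that a lentivirus had given a hairpin targeting interleukin-1β (LV-shIL-1β, 3 arrays) were compared with cells that carried a scrambled hairpin (LV-shNC, 3 arrays), to explore which genes change when this inflammatory cytokine is silenced. The knockdown cells were a puromycin-selected population (2 µg/mL for 2 weeks) of a single cell line, made with 1 hairpin sequence. The labels attach this selection protocol to the arrays of both groups, while its wording names the knockdown cells only. Whether each array stands for its own culture is not stated there. The p-values below therefore cover only the scatter between these arrays, which may be technical.

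NRF2, encoded by NFE2L2, is a transcription factor that is held low in unstressed cells by KEAP1, an adaptor that hands it to a cullin-3 ubiquitin ligase. When oxidants or electrophiles modify KEAP1, or when the autophagy receptor p62 (SQSTM1) binds it, NRF2 escapes degradation, pairs with a small MAF protein and binds antioxidant response elements in the DNA of its target genes. The targets make and recycle glutathione and thioredoxin, supply NADPH, detoxify quinones and aldehydes and pump conjugates out of the cell, and the pathway is known to be altered by mutation in a share of squamous carcinomas.

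The hairpin's target was lower. IL1B had signals of 1569, 1569 and 1597 in LV-shIL-1β against 2677, 2611 and 2494 in LV-shNC, a log2 difference of -0.72 ± 0.04 (SE, limma, Benjamini-Hochberg adjusted p = 2.46e-05). In bulk RNA such as this, less transcript per cell and fewer cells with the transcript cannot be told apart, here and for every gene below. Array medians were 18.4 to 18.7 in LV-shIL-1β and 18.6 to 18.9 in LV-shNC. The 3′ over 5′ signal on the log2 scale, a measure of RNA integrity, ran from 0.33 to 0.44 in LV-shIL-1β and from 0.30 to 0.55 in LV-shNC for ACTB. For GAPDH it ran from 0.02 to 0.05 in LV-shIL-1β and from -0.06 to 0.01 in LV-shNC, so this ratio did not overlap between the groups, and its part in the differences below was not tested. Of 8 squamous epithelial markers, 5 had a probe set used here, and all 5 lay above the filter on every array, with summed signals of 19545 to 19939 in LV-shIL-1β and 21496 to 22324 in LV-shNC. KRT14 and KRT5 were lower in LV-shIL-1β (log2 differences of -0.35 and -0.32). CDH1 (0.04), EPCAM (0.06) and SFN (0.01) did not pass. Summed signals of 6 fibroblast markers were 118 to 132 in LV-shIL-1β and 150.5 to 173 in LV-shNC, and 1 of the 6 exceeded the filter on every array. LUM (log2 difference -1.14 ± 0.18, SE) and COL1A2 (-0.53 ± 0.10) were above the filter on the LV-shNC arrays only. They entered the test only through the group where they were higher, so their calls as lower carry no weight. COL3A1 and DCN were below the filter on all 6 arrays. Summed signals of 3 leukocyte markers, 1 of which exceeded the filter on every array, were 87.0 to 91.0 in LV-shIL-1β and 63.9 to 69.2 in LV-shNC. CD14 was the member of that list called higher (70.4 ± 4.07 in LV-shIL-1β and 49.5 ± 2.76 in LV-shNC, SD, n = 3 each), while the pan-leukocyte marker PTPRC lay at 2.3 to 2.8 over both groups. Summed signals of 3 endothelial markers were 57.6 to 58.9 in LV-shIL-1β and 58.4 to 62.1 in LV-shNC. The part of these markers in the differences below was not tested.

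To show where an antioxidant response element could lie, the promoters of the members with the clearest differences are printed first. RefSeq promoter sequences (GRCh38.p14, from 250 bases before to 50 bases after the gene start) matched 25 of the 32 genes. They were searched on both strands for the core of the element, TGACNNNGC, and for the AP-1 site in its forms TGACTCA and TGAGTCA. The first AP-1 form overlaps the core wherever the core reads TGACTCAGC, and each AP-1 form is the other's reverse complement. The core was present in 7 of the 25 promoters (28%), against 13.6% of 27305 human promoters of the same length. An AP-1 site was present in 4 of the 25 (16%), against 4.92% of all promoters. The 250 bases before the start are given 5′ to 3′ on the gene's strand for GPX2 (chr14:64942746-64942995, minus strand), GCLM (chr1:93909431-93909680, minus strand) and ME1 (chr6:83431052-83431301, minus strand), which rose and hold the core, for SQSTM1 (chr5:179806143-179806392, plus strand), which rose and does not hold it in this window, and for BLVRB (chr19:40465746-40465995, minus strand), which fell and does not hold it. Capitals mark the core, which lies on the opposite strand in GPX2 and GCLM and therefore reads as its reverse complement there.
GPX2: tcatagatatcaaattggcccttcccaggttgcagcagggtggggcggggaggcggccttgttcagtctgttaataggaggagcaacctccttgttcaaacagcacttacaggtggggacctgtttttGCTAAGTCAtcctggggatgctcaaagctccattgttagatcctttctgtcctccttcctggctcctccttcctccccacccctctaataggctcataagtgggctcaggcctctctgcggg
GCLM: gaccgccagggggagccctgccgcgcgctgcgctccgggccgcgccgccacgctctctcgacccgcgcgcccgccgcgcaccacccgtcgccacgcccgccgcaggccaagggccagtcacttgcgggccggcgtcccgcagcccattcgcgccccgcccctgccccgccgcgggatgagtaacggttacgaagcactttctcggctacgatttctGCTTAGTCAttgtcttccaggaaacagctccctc
ME1: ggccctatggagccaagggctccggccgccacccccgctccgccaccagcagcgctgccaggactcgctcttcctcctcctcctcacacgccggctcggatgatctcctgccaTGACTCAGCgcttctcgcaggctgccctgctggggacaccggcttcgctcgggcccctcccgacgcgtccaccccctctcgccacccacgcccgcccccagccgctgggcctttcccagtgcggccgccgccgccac
SQSTM1: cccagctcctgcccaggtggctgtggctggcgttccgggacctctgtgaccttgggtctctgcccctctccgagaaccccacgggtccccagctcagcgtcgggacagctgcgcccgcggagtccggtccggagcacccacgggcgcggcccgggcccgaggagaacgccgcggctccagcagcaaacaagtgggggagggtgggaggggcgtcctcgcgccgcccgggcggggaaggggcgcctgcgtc
BLVRB: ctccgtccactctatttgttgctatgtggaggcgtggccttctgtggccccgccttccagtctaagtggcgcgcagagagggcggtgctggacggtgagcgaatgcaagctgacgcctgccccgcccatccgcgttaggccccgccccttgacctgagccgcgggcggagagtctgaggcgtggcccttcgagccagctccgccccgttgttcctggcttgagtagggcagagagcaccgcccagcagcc
The core began 122 bases before the start in GPX2 (TGACTTAGC on its own strand), 34 before it in GCLM (TGACTAAGC) and 137 before it in ME1 (TGACTCAGC, which overlaps an AP-1 site), and ME1 had a further core after its start (TGACGGTGC). Among members that did not pass the test, GSTP1 (TGACTCAGC), TXNRD1 (TGACTTCGC and TGACGGAGC), PGD (TGACATTGC) and PIR (TGACTCAGC) also held the core. By outcome, 3 of the 4 members that rose and had a promoter sequence held it, as did 0 of the 1 that fell and 4 of the 18 that were tested and did not pass. A match describes letters only, since binding was not measured. A core outside the searched window would be missed for any gene. The members were listed as genes of this response, so these shares describe them and are no test.

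The test called 7 of the 30 tested members. GPX2, SQSTM1, GCLM, SLC7A11 and ME1 rose and BLVRB and ABCC1 fell in LV-shIL-1β. The 5 that rose are 16.7% of the 30, against a background of 4.03% of 12320 tested genes (each by its brightest probe set) called higher, and the 2 that fell are 6.67% against 4.5% called lower. The list was chosen with earlier results of these data known, so these shares describe it and are no test. Over all 27566 tested probe sets, 7.05% were called in either direction. The median log2 difference of the 30 members was 0.07, against 0.00 over the 12320 genes, and 20 members (66.7%) lay above 0, against 51.1% of genes. The 3 LV-shIL-1β arrays all lay above the 3 LV-shNC arrays for 12 members, where 15.9% of genes did so, and all lay below for 3 members, where 15.7% of genes did so. Only GPX2 exceeded a fold of 1.5 with an unadjusted limma p under 0.05, a rule met by 0.472% of all 54613 probe sets that were not controls.

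**Figure D1:**
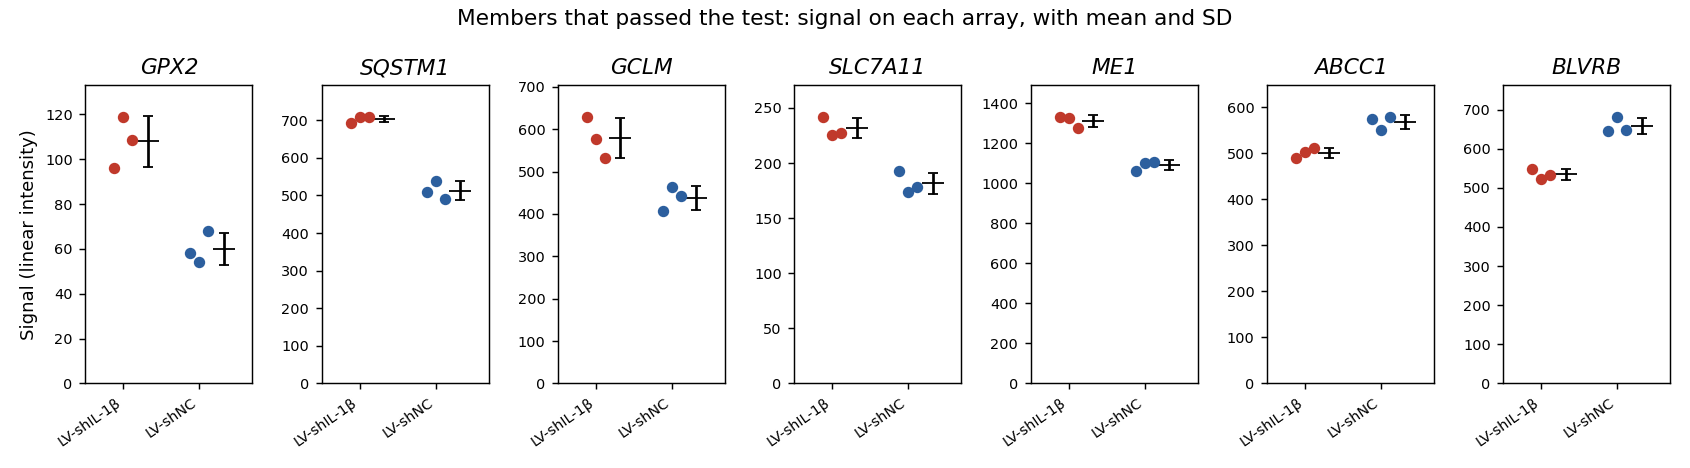
Signal (vertical axis, linear intensity from 0) of the 7 members that passed the test on each array, with LV-shIL-1β in red and LV-shNC in blue and a point for each of the 3 arrays. Black bars give mean and SD. GPX2, SQSTM1, GCLM, SLC7A11 and ME1 are higher in every LV-shIL-1β array, and ABCC1 and BLVRB lower in every one.

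Members of glutathione synthesis and use held 3 of the 5 increases, or 42.9% of the 7 tested, against 4.03% of all tested genes. Other genes of this role, from a list of 98 pathway genes described below, did not share this. Of 24 tested, 1 rose (4.17%) and 0 fell, with a median log2 difference of 0.00. GPX2, the glutathione peroxidase of epithelia, had signals of 96.3, 119 and 109 in LV-shIL-1β against 58.1, 54.2 and 67.8 in LV-shNC. Every LV-shIL-1β array lay above every LV-shNC array, and the log2 difference was 0.85 ± 0.10 (SE, 95% confidence interval 0.62 to 1.08, limma, Benjamini-Hochberg adjusted p = 0.00177), or 80.1% more signal. GCLM, the modifier subunit of glutamate-cysteine ligase, the rate-limiting enzyme of glutathione synthesis, had 629, 576 and 533 in LV-shIL-1β against 407, 462.5 and 443 in LV-shNC. The groups did not overlap, and the log2 difference was 0.40 ± 0.07 (interval 0.25 to 0.56, adjusted p = 0.00909). Its second probe set rose as well (0.35 ± 0.09, adjusted p = 0.0464), and the dimmest one stood at 0.45 ± 0.12 (adjusted p = 0.0524). The call on the brightest probe set was lost without LV-shIL-1β array 2 (limma, Benjamini-Hochberg adjusted p = 0.0537), where the difference was 0.41.

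SLC7A11, the cystine importer that feeds cysteine into glutathione, had 242, 225.5 and 227 in LV-shIL-1β against 192.5, 174 and 178 in LV-shNC. The log2 difference was 0.35 ± 0.06 (SE, interval 0.21 to 0.49, limma, Benjamini-Hochberg adjusted p = 0.00923), and a second probe set gave 0.38 ± 0.06 (adjusted p = 0.00461). Another, dimmer one stood at 0.24 ± 0.09 (adjusted p = 0.148). GCLC, the catalytic partner of GCLM, did not pass. Its signals of 396, 421.5 and 438 in LV-shIL-1β lay just above the 395.5, 372.5 and 379.9 in LV-shNC, with a log2 difference of 0.13 ± 0.05 (interval 0.01 to 0.25, adjusted p = 0.194). The difference between the changes of the 2 subunits was not tested.

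Of the other genes of glutathione use, the reductase and both tested transferases did not pass. Glutathione reductase, GSR, stood at -0.02 ± 0.09 (SE, interval -0.22 to 0.18, limma, Benjamini-Hochberg adjusted p = 0.926), with overlapping signals of 303 to 363 in LV-shIL-1β and 299 to 374 in LV-shNC. The transferase GSTP1 stood at -0.06 ± 0.04 (interval -0.15 to 0.03) and GSTM3 at 0.04 ± 0.05 (interval -0.06 to 0.15).

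Among the regulators, SQSTM1 rose and the transcripts of NRF2 and KEAP1 did not pass. SQSTM1, the receptor that links cargo to autophagy and binds KEAP1, had 693, 709 and 708 in LV-shIL-1β against 508, 539 and 489.5 in LV-shNC. The log2 difference was 0.46 ± 0.05 (SE, interval 0.35 to 0.57, limma, Benjamini-Hochberg adjusted p = 0.000863), the smallest adjusted p of the 30 members. Its second probe set rose by 0.58 ± 0.08 (adjusted p = 0.00385), and a pair of dimmer ones stood at 0.38 ± 0.11 (adjusted p = 0.0634) and 0.27 ± 0.10 (adjusted p = 0.143). NFE2L2 had 1138, 1058 and 1061 in LV-shIL-1β against 1026, 1251 and 1131 in LV-shNC. These values overlapped, and the log2 difference was -0.06 ± 0.07 (interval -0.21 to 0.09, adjusted p = 0.641).

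KEAP1 had 345, 418 and 394 in LV-shIL-1β against 345, 335 and 318 in LV-shNC. LV-shIL-1β array 1 lay level with the highest LV-shNC array and the other two lay above all of them, with a log2 difference of 0.21 ± 0.07 (SE, interval 0.05 to 0.37, limma, Benjamini-Hochberg adjusted p = 0.121). Without LV-shIL-1β array 1 the difference was 0.29 and passed (limma, Benjamini-Hochberg adjusted p = 0.0243). MAFG, a small MAF partner of NRF2, had 295, 299.5 and 294 in LV-shIL-1β against 282, 280.2 and 285 in LV-shNC. The groups did not overlap, but the log2 difference of 0.07 ± 0.05 (interval -0.04 to 0.18) did not pass.

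**Figure D2:**
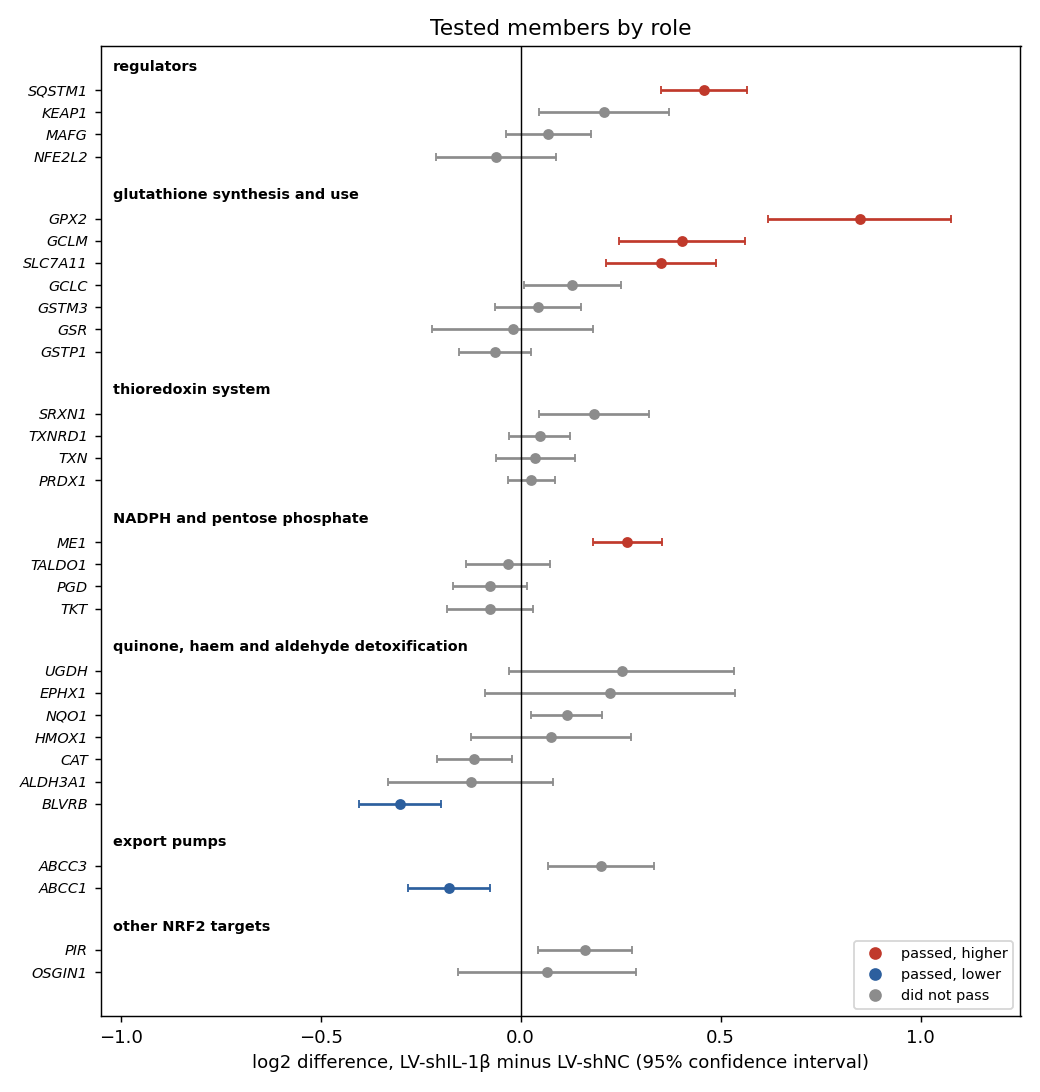
Log2 difference of each of the 30 tested members (horizontal axis, LV-shIL-1β over LV-shNC) with its 95% confidence interval from limma, grouped by role. Red and blue points passed the adjusted threshold upward and downward, and grey points did not. Of 7 tested members of glutathione synthesis and use 3 rose, and of 4 thioredoxin members 0 did, against 4.03% of all tested genes. Of 24 tested genes of glutathione synthesis and use outside the members, not drawn here, 1 rose (4.17%).

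The thioredoxin system, which reduces oxidised protein thiols and peroxiredoxins, had 0 of 4 members called, with log2 differences from 0.03 to 0.18. Of all tested genes 4.03% were called higher and 4.5% lower, so 0 of 4 does not set this group apart. Thioredoxin itself, TXN, had 5079, 4858 and 4599 in LV-shIL-1β against 4518, 4957 and 4694 in LV-shNC. These overlapped, at 0.04 ± 0.04 (SE, interval -0.06 to 0.14), and a second probe set stood at -0.01 ± 0.17. Its reductase TXNRD1 had 1603, 1628 and 1647 in LV-shIL-1β against 1549, 1597 and 1574 in LV-shNC. Every LV-shIL-1β array was higher, but by little, with a log2 difference of 0.05 ± 0.03 (interval -0.03 to 0.12). The peroxiredoxin PRDX1 stood at 0.03 ± 0.03 (interval -0.03 to 0.09), the narrowest interval of the 30 members.

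SRXN1, the sulfiredoxin that repairs over-oxidised peroxiredoxins, had 443, 512 and 504 in LV-shIL-1β against 439, 419 and 424 in LV-shNC. Arrays 2 and 3 of LV-shIL-1β stood apart from LV-shNC and array 1 barely did, and the log2 difference was 0.18 ± 0.06 (SE, limma, Benjamini-Hochberg adjusted p = 0.111). Without LV-shIL-1β array 1 it was 0.25 and passed (limma, Benjamini-Hochberg adjusted p = 0.021).

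Among the 4 genes of NADPH supply and the pentose phosphate pathway, only the malic enzyme ME1 was called (25%, against 4.03% of genes called higher). ME1, which makes NADPH from malate in the cytosol, had 1332, 1326 and 1278 in LV-shIL-1β against 1063, 1101 and 1108 in LV-shNC. The groups lay well apart, with a log2 difference of 0.27 ± 0.04 (SE, interval 0.18 to 0.35, limma, Benjamini-Hochberg adjusted p = 0.00388), and its second tested probe set gave 0.30 ± 0.09 (adjusted p = 0.0686). The pentose phosphate enzymes in the list stood at -0.03 ± 0.05 for TALDO1, -0.08 ± 0.04 for PGD and -0.08 ± 0.05 for TKT. None of these 3 passed on any tested probe set (limma, adjusted p of 0.192 or more).

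**Figure D3:**
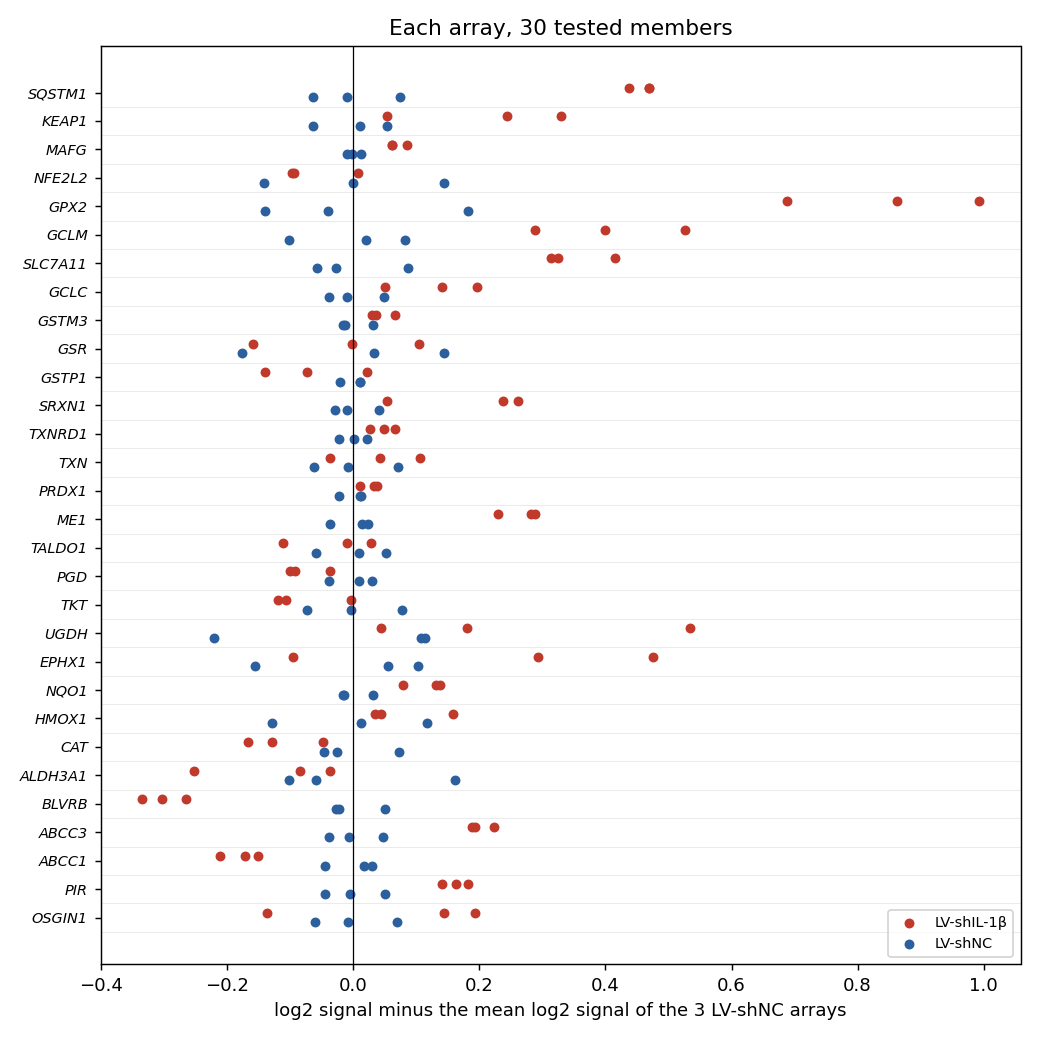
Log2 signal of each of the 30 tested members on each array (points), minus the mean log2 signal of the 3 LV-shNC arrays (horizontal axis), with LV-shIL-1β in red above LV-shNC in blue for each gene. GPX2, SQSTM1, GCLM, SLC7A11 and ME1 show a clear gap to the right, and BLVRB and ABCC1 to the left, whereas KEAP1, SRXN1 and EPHX1 have LV-shIL-1β array 1 among or next to the LV-shNC arrays.

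Enzymes of quinone, heme and aldehyde detoxification had 0 of 7 members called higher (against 4.03% of genes) and 1 called lower (14.3%, against 4.5% of genes). With 7 genes, neither count can be set apart from those shares. BLVRB, which reduces biliverdin and flavins, had 547, 522 and 533 in LV-shIL-1β against 646, 681 and 648 in LV-shNC. The groups did not overlap, and the log2 difference was -0.30 ± 0.05 (SE, interval -0.40 to -0.20, limma, Benjamini-Hochberg adjusted p = 0.00469), or 18.9% less signal. HMOX1, the heme oxygenase that makes biliverdin and a classic NRF2 target, was dim, with 32.9, 35.6 and 32.7 in LV-shIL-1β against 29.2, 34.6 and 32.2 in LV-shNC. These values overlapped, at 0.08 ± 0.09 (interval -0.12 to 0.28, adjusted p = 0.669).

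NQO1, the quinone reductase often used as a readout of NRF2, had 979, 1019.9 and 1016 in LV-shIL-1β against 918, 916 and 948 in LV-shNC on its brightest probe set. Every LV-shIL-1β array was higher, but the log2 difference of 0.12 ± 0.04 (SE, interval 0.03 to 0.20) missed the threshold (limma, Benjamini-Hochberg adjusted p = 0.117). Its second probe set, with 628, 658 and 680.1 in LV-shIL-1β against 573, 575 and 568 in LV-shNC, did pass (0.20 ± 0.05, adjusted p = 0.0328). Another stood at 0.18 ± 0.06 (adjusted p = 0.0874), so the 3 probe sets shared a sign and differed in their call.

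Catalase, CAT, which breaks down hydrogen peroxide, was split in the same way in the other direction. Its brightest probe set had 3448, 3177 and 3261 in LV-shIL-1β against 3503, 3752 and 3455 in LV-shNC, a log2 difference of -0.12 ± 0.04 (SE, limma, Benjamini-Hochberg adjusted p = 0.14). The second, with 1176, 1150.0 and 1185.5 in LV-shIL-1β against 1493, 1386 and 1279 in LV-shNC, passed at -0.24 ± 0.05 (adjusted p = 0.029). UGDH, which makes UDP-glucuronic acid for conjugation, had 449, 351.2 and 319.5 in LV-shIL-1β against 266, 334 and 335.5 in LV-shNC. The spread within each group was wide, LV-shIL-1β array 1 being the highest and LV-shNC array 1 the lowest, and the difference of 0.25 ± 0.13 did not pass. The epoxide hydrolase EPHX1 (0.22 ± 0.14) and the aldehyde dehydrogenase ALDH3A1 (-0.12 ± 0.09) did not pass either, and their groups overlapped.

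**Figure D4:**
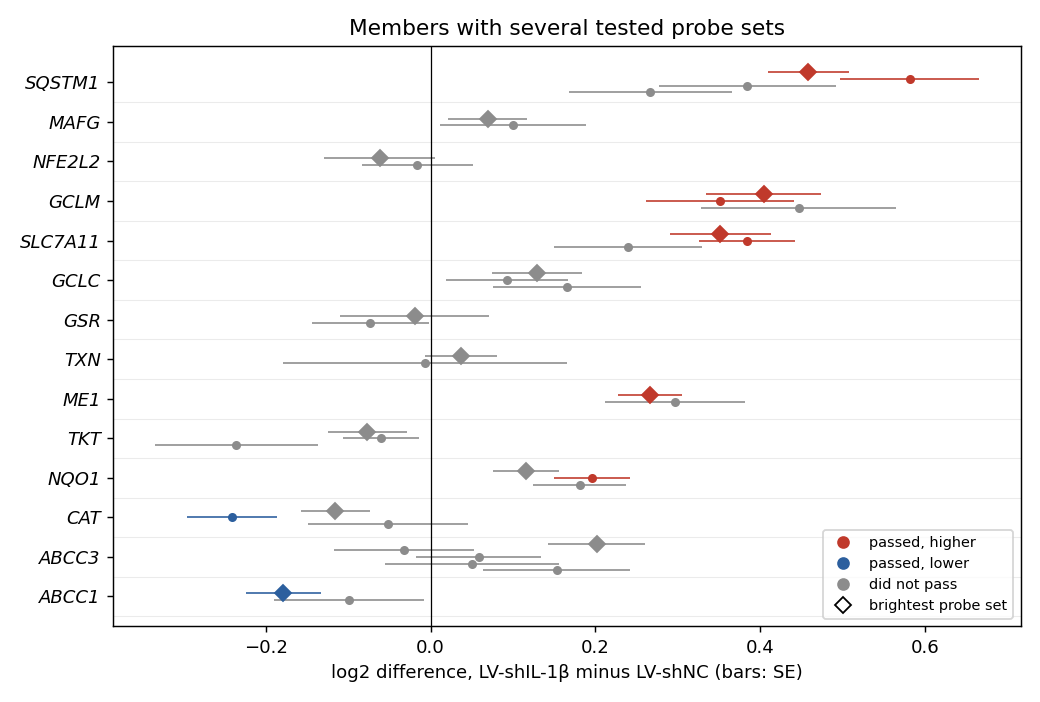
Log2 difference (horizontal axis, LV-shIL-1β over LV-shNC) of every tested probe set of the members with more than 1, with its SE as a bar. Diamonds mark the brightest probe set of a gene, and red, blue and grey mark passed upward, passed downward and not passed. The 4 SQSTM1 probe sets lie between 0.27 and 0.58, and NQO1 and CAT passed on a probe set other than their brightest.

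Among export pumps, ABCC1, which pumps out glutathione conjugates, had 490.2, 504 and 511 in LV-shIL-1β against 574, 550.2 and 579.5 in LV-shNC. The log2 difference was -0.18 ± 0.05 (SE, interval -0.28 to -0.08, limma, Benjamini-Hochberg adjusted p = 0.0456). With any one of the 6 arrays removed the call was lost, at adjusted p-values from 0.0769 to 0.146 in limma with Benjamini-Hochberg adjustment, and the second probe set stood at -0.10 ± 0.09. ABCC3, a related pump, had 122, 119 and 119 in LV-shIL-1β against 102, 104 and 108 in LV-shNC. The groups did not overlap, but the difference of 0.20 ± 0.06 missed the threshold (limma, Benjamini-Hochberg adjusted p = 0.0729), and its 4 other probe sets ran from -0.03 to 0.15. Of the remaining NRF2 targets, the iron-binding nuclear protein PIR had 262, 269.8 and 266 in LV-shIL-1β against 237, 230.5 and 246 in LV-shNC. It did not pass (0.16 ± 0.05, adjusted p = 0.0991), and neither did OSGIN1, an oxidative stress response gene (0.07 ± 0.10).

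A list of 98 other genes of the same pathways gave a different balance. Of these, 92 had a probe set with that symbol alone and 85 were tested, of which 3 rose (3.53%, against 4.03% of genes) and 10 fell (11.8%, against 4.5% of genes), with a median log2 difference of 0.00. The increases were PRDX2, a peroxiredoxin (0.33 ± 0.04, SE, limma, Benjamini-Hochberg adjusted p = 0.0023), ABCC5, a pump (0.30 ± 0.06, adjusted p = 0.0125), and GSTA4, the transferase for the lipid peroxidation product hydroxynonenal (0.44 ± 0.09, adjusted p = 0.0222). PRDX2 had 754, 779.6 and 789.8 in LV-shIL-1β against 609, 609 and 630.5 in LV-shNC on its brightest probe set, and its 3 other tested probe sets did not pass, at 0.01 to 0.30. Some genes not called on their brightest probe set passed on a dimmer one (limma, Benjamini-Hochberg adjustment). There GLRX3 (0.50 ± 0.09, adjusted p = 0.0105), CUL3 (0.32 ± 0.07, adjusted p = 0.0301) and CYP1B1 (0.26 ± 0.07, adjusted p = 0.0462) rose. BLVRA fell (-0.24 ± 0.06, adjusted p = 0.0467). The brightest GLRX3 probe set stood at -0.12.

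The largest decrease of that list was in CBR1, a carbonyl reductase, with 364, 355 and 361 in LV-shIL-1β against 582, 540.3 and 543 in LV-shNC (log2 difference -0.62 ± 0.05, SE, limma, Benjamini-Hochberg adjusted p = 0.000254). BACH1, the repressor that competes with NRF2 for antioxidant response elements and holds down HMOX1, had 90.1, 87.5 and 89.7 in LV-shIL-1β against 116, 127 and 125 in LV-shNC. It fell by 0.46 on the log2 scale (SE 0.06, adjusted p = 0.00304). The relatives of NRF2, NFE2L3 (-0.33 ± 0.06) and NFE2L1 (-0.17 ± 0.04), and the thioredoxin inhibitor TXNIP (-0.14 ± 0.03) also fell. The aldehyde dehydrogenase ALDH7A1 fell by 0.47, the sulfotransferase SULT1A1 by 0.27, the prostaglandin reductase PTGR1 by 0.25, the mitochondrial NADPH source IDH2 by 0.23 and the superoxide dismutase SOD1 by 0.21. CBR1, ALDH7A1, BACH1 and PRDX2 kept their calls whichever single array was left out. Each of the other 9 lost its call without at least 1 array. NFE2L1 (limma, Benjamini-Hochberg adjusted p from 0.0712 to 0.173) and IDH2 (0.0517 to 0.106) lost it whichever single array was left out. TXNIP kept its call only without LV-shIL-1β array 1.

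CBR1, BACH1 and SOD1 lie on chromosome 21, as does CBR3, which stood at -0.23 ± 0.07 and missed the threshold (limma, Benjamini-Hochberg adjusted p = 0.0808). Of 126 tested genes of that chromosome, 0 rose and 55 fell (43.7%), with a median log2 difference of -0.22, whereas the medians of the other chromosomes lay between -0.03 and 0.02. The part of this shift in the values of CBR1, BACH1, SOD1 and CBR3 was not tested. No member of the 32 lies on chromosome 21.

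**Figure D5:**
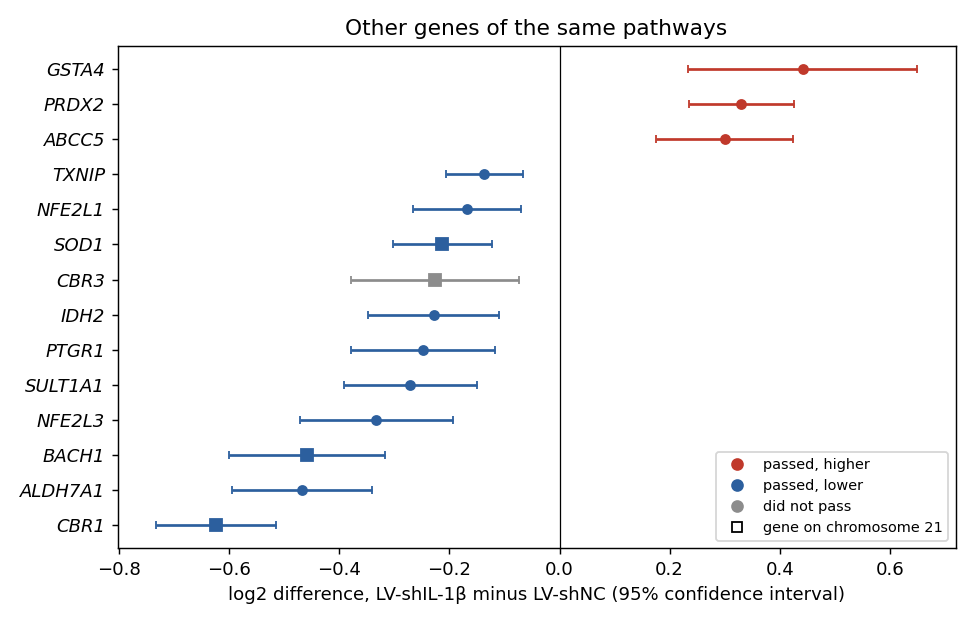
Log2 difference (horizontal axis, LV-shIL-1β over LV-shNC) with its 95% confidence interval from limma for the 13 other pathway genes that passed and for CBR3; squares mark genes on chromosome 21, red and blue points passed upward and downward, and the grey one did not pass. CBR1, at -0.62, lies lowest, and 3 of the 10 decreases are on chromosome 21.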

How the data were processed

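RNA of Cal27 cells was measured on 6 arrays, 3 of LV-shIL-1β and 3 of LV-shNC, grouped by the sample titles, from 6 µg of total RNA per the labels. The authors deposited 1 linear intensity per probe set and array for 54675 probe sets. MAS5 is the tool in the submitters' processing notes. Its version and scaling target are not given in the sources. Values ran from 1.38 to 10502. Precision is limited by there being 3 arrays a group.

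The log2 of each deposited intensity was taken with no further scaling. The array's 62 control probe sets were dropped, and 27566 probe sets with at least 3 of 6 arrays above the median signal of 18.6 were tested with limma (version 3.58.1, R 4.3.3; a two-sided moderated test with an intensity trend, LV-shIL-1β over LV-shNC). Benjamini-Hochberg adjustment ran over all of them, with a threshold of 0.05. On simulated data the fit recovered 19.7% of 1.25-fold changes, 74.8% of 1.5-fold and 98% of 2-fold changes, with 4.5% of calls false. A gene that did not pass may therefore still have changed by a small fold. The simulated data held a far smaller share of changed probe sets than the 7.05% called here. Their variances were drawn from the fit itself, so these percentages need not hold for the real arrays. Symbols are those of GEO's platform annotation, of which a RefSeq table changed 0 for the 41097 probe sets with a single symbol. Probe sets with several symbols named no gene. That table (GRCh38.p14) also gave chromosomes, and RefSeq promoters of the same build gave the sequences, while the array values carry no build.

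The members, the other pathway genes, the tests and the alternatives were chosen with earlier results of these data known. All 32 members are named. Values per array are given for members called, for NFE2L2, KEAP1, MAFG and SQSTM1, and for members whose probe sets disagree, and some others were added after their values were seen. Of the other pathway genes, those called are named, and CBR3, GLRX3, CUL3, CYP1B1 and BLVRA were added after their values were seen. Alternatives covered the filter, pseudocount, normalization, choice of probe set, variance model, the methods' t-test, a replicate block and each array left out.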

Additional observations from a re-analysis of the deposited data

How the results depend on the processing

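Among the members, the count called higher was 5 under most alternatives, 7 with array weights and 4 when the brightest probe set without an _x_at or _s_at name or the one with the largest variance stood for a gene. It was 1 (SQSTM1) with the methods' t-test and Benjamini-Hochberg adjustment, and 1 (GPX2) at a fold over 1.5. At an unadjusted threshold of 0.05 the methods' t-test gave 10 members higher and 2 lower, and 5227 probe sets. The count called lower was 2, or 1 with no filter, after median centring, with a gene's probe sets averaged and with no trend, and 0 with the methods' t-test and at a fold over 1.5. Without a single array, 4 to 7 members rose and 1 (BLVRB) fell in each case. The total over all probe sets, 1943 as reported, was 267 with the methods' t-test, 258 at a fold over 1.5 and 696 to 1808 without a single array, lowest without LV-shIL-1β array 2 and over 1.5 times lower without each array other than LV-shIL-1β array 1. Of the other pathway genes, 13 were called as reported, 8 without _x_at and _s_at probe sets, 5 with the methods' t-test, 1 at a fold over 1.5 and 5 to 11 without a single array, again over 1.5 times fewer without each array other than LV-shIL-1β array 1.

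With the replicate number as a block, 4 members rose and 0 fell, 568 probe sets and 4 of the other pathway genes were called, and GCLM (limma, Benjamini-Hochberg adjusted p = 0.0562), BLVRB (0.0542) and ABCC1 (0.189) no longer passed. Whether arrays of the same number share a culture or batch is not stated. Deviations from the group means correlated at -0.39, -0.11 and -0.21 between arrays of the same number. Of the 6 arrays, 0 correlated best with the array of its own number in the other group. With so few arrays, whose deviations sum to 0 within each group, these values cannot decide whether the numbers mark pairs. IL1B stayed called under every alternative that tested it.

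Signs turned only for members near 0 that did not pass: TXN (-0.0072 with the largest-variance probe set and without _x_at or _s_at names), GSR (0.056 with array weights, and -0.11 to 0.053 without a single array, above 0 without array 1 of either group), TALDO1 (-0.061 to 0.0088 without a single array, above 0 without LV-shIL-1β array 1) and NFE2L2 (-0.13 to 0.010 without a single array, above 0 without LV-shNC array 2). Centring on the median difference of tested probe sets, an alternative chosen after seeing the data, left 5 members higher and 2 lower. The cause of these dependences was not tested. HMOX1, EPHX1 and OSGIN1 had signals of at most 41.5, near the filter, and their intervals do not bound small changes.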
